A study of Homo sapiens with 12 samples.

Results

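The 37 genes of the human mitochondrial genome were followed in sorted RPE1 cells, a telomerase-immortalised line derived from retinal pigment epithelium. They are the rows whose symbol begins with MT-, and all 37 were found among the 57773 gene identifiers of the deposited table: 13 mRNAs, 2 rRNAs and 22 tRNAs. The study compared 4 groups of 3 RNA-seq libraries, named here Anillin 4N, control 4N, Anillin 2N and control 2N. Anillin cells carried siRNA against Anillin (gene symbol ANLN), a scaffold of the contractile ring that cells need to divide in cytokinesis, and control cells carried a non-targeting siRNA labelled Random. All groups grew in DMEM with fetal bovine serum and took up siRNA with Lipofectamine RNAiMAX for 24 h. After 60 min in 2 µg/mL of the DNA dye Hoechst, flow sorting separated a 4N and a 2N fraction of each. A 4N gate holds cells in G2 and mitosis as well as cells that failed to divide, and the labels do not give their proportions. Replicates are described as biological, but separate cultures are not stated, so p-values measure the spread between these samples, which may be technical.

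Both strands of the circular mitochondrial DNA are transcribed as long precursors by the polymerase POLRMT with the factors TFAM and TFB2M. Transcription from the heavy-strand promoter yields both rRNAs, the mRNAs of 12 protein-coding genes and 14 tRNAs, and transcription from the light-strand promoter yields the mRNA MT-ND6 and 8 tRNAs. Each protein-coding gene is counted here as an mRNA, also where genes overlap. The tRNAs lie between most of the other genes, and cutting them out, by mitochondrial RNase P at the 5′ side and ELAC2 at the 3′ side, releases the rRNAs and mRNAs. The mRNAs encode subunits of respiratory complex I (the MT-ND genes), complex III (MT-CYB), complex IV (MT-CO genes) and complex V, the ATP synthase (MT-ATP genes). The remaining subunits, and the proteins that copy, transcribe and translate mitochondrial DNA, are encoded in the nucleus. Human MT-ND6 mRNA is known to lack the poly(A) tail of the other mitochondrial mRNAs.

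The strand of origin can be read in the sequence. The first 60 bases of MT-ND6 (chrM:14614-14673, minus strand, GRCh38) and of 2 heavy-strand mRNAs, MT-CO1 (chrM:5904-5963, plus strand) and MT-CYB (chrM:14747-14806, plus strand), are shown because these 3 mRNAs passed the test between Anillin 4N and control 4N cells, with each G in capitals.
MT-ND6: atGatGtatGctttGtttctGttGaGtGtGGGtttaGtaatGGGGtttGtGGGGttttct
MT-CO1: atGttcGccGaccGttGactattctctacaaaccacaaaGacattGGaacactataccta
MT-CYB: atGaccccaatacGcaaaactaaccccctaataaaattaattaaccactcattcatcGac
MT-ND6 was 35.6% G and 7.05% C over its whole length, whereas the 12 heavy-strand mRNAs were 6.28% to 16.2% G and 29.5% to 36.0% C. MT-ND6 is 525 bases long, MT-CO1 1542 and MT-CYB 1141.

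The genes adjoin or overlap, which bears on how reads can be assigned. Of the 13 mRNAs, 6 end in an incomplete codon that the poly(A) tail completes, shown here in capitals for the last 30 bases of MT-CYB (chrM:15858-15887, plus strand) and MT-ND1 (chrM:4233-4262, plus strand).
MT-CYB: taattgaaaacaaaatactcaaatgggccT
MT-ND1: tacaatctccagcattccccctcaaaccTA
MT-ATP8 and MT-ATP6 share 46 bases, and MT-ND4L and MT-ND4 share 7, all on the same strand. The shared bases are in capitals in the last 80 bases of MT-ATP8 (chrM:8493-8572, plus strand) and the last 30 of MT-ND4L (chrM:10737-10766, plus strand).
MT-ATP8: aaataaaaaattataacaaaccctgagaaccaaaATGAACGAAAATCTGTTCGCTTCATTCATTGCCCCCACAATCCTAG
MT-ND4L: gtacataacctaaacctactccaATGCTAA
How the counting treated shared bases is not given in the sources used here, so the values of these 4 mRNAs are uncertain to that extent. The tRNA for glutamine, MT-TQ (chrM:4329-4400, minus strand), faces the last 3 bases of the tRNA for isoleucine, MT-TI (chrM:4263-4331, plus strand), on the other strand. Both are shown whole, with these bases in capitals, because MT-TQ was the tRNA that passed the test.
MT-TQ: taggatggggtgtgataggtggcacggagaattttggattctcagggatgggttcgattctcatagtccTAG
MT-TI: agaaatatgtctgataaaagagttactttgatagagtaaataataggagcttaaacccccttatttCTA

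Expression was deposited as RPKM, a read density scaled to gene length and library size. Reads in genes numbered 17412743 to 61760470 per library. The 37 genes took 3.31% to 4.54% of them, the mRNAs 3.22% to 4.34%, the rRNAs 0.0860% to 0.207% and the tRNAs 0.00403% to 0.00577%. The targeted gene ANLN averaged 0.0848 ± 0.0144 RPKM in Anillin 4N and 7.95 ± 0.485 RPKM in control 4N cells (SD, n = 3), and 0.0609 ± 0.0229 RPKM in Anillin 2N and 1.60 ± 0.322 RPKM in control 2N cells. Defining markers of retinal pigment epithelium were at or near 0: RPE65 averaged 0.0393 RPKM over the 12 libraries, BEST1 0.0962 and RLBP1 0.0340, and TTR had no reads. OTX2 averaged 3.76 RPKM, the epithelial keratin KRT18 109 and vimentin, VIM, 687, while of the blood markers PTPRC averaged 0.00124 and CD68, a lysosomal protein, 15.1. Differences were tested with limma-trend on log2(RPKM + 0.5) in 1 fit of 12892 genes, and called at a Benjamini-Hochberg adjusted p under 0.05. Log2 changes are given ± SE, and levels as mean ± SD of 3 libraries.

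Values are relative to the other RNA of a library, so fewer cells of a type and less RNA per cell cannot be told apart in these bulk samples. The scaling between libraries was also not neutral. The authors' scaling factors, recovered here from the RPKM values, were 1.01 to 1.04 in Anillin 4N and 0.951 to 0.962 in control 4N libraries. Between Anillin 4N and control 4N cells the median change of all genes was -0.05 on the RPKM scale, and 0.11 with limma-voom on recovered reads, a test of 22404 genes that does not use those factors. Between control 4N and control 2N cells the median was 0.05 on the RPKM scale, -0.08 with limma-voom and -0.02 with quantile scaling. It was -0.0007 with median-of-ratios scaling and -0.003 with the nuclear denominator. The balance of calls moved as well. Of 12892 genes, 2582 were higher and 4056 lower between Anillin 4N and control 4N cells on the RPKM scale, and 3505 and 3182 with quantile scaling. With limma-voom 6503 of 22404 were higher and 3974 lower. Between control 4N and control 2N cells limma-voom called 3188 of 22404 genes higher and 5138 lower, and limma-trend 3079 and 1703 of 12892. Small changes of the mRNAs are read against these medians, and the ratios within the mitochondrial transcriptome given further on are free of the scaling.

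**Figure D1:**
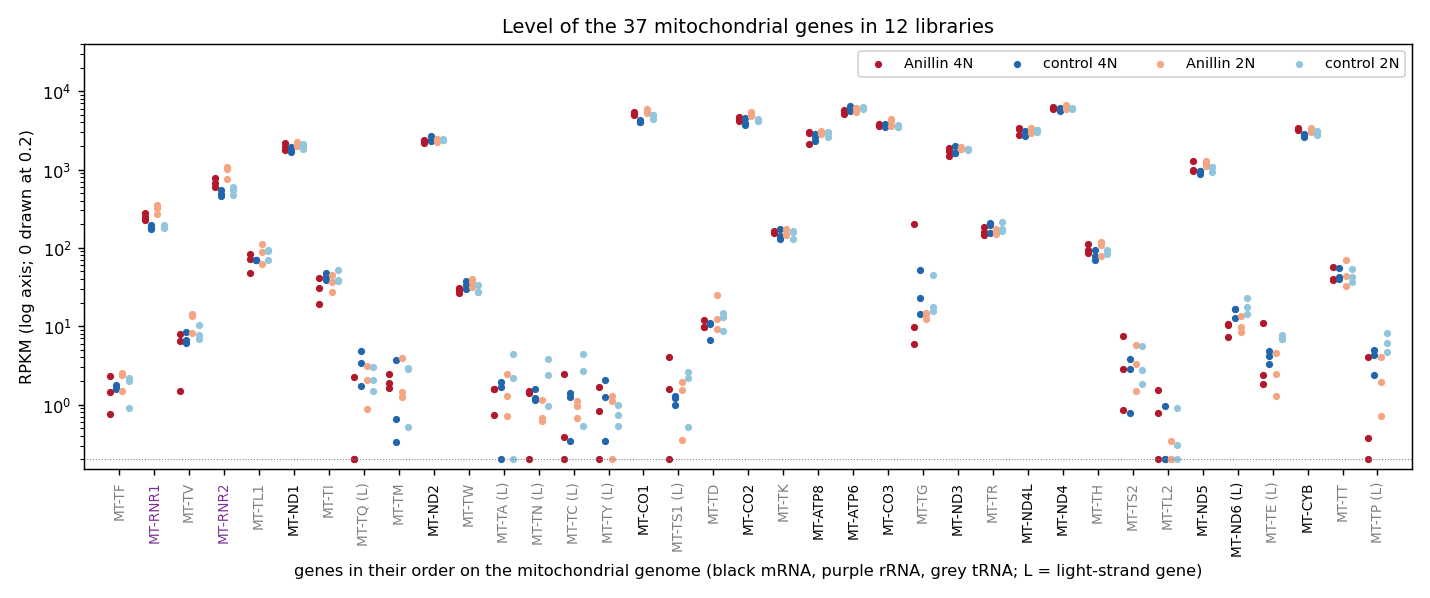
RPKM (log axis) of the 37 mitochondrial genes in genome order in the 12 libraries, 1 point per library and coloured by group. The 12 heavy-strand mRNAs lie between 889 and 6656 RPKM, the rRNAs between 176 and 1091, and the light-strand mRNA MT-ND6 between 7.37 and 23.1; values of 0 are drawn at the dotted line.

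Levels per length differed widely between genes that arise from the same precursor. MT-ND4 and MT-ATP6 were the highest mRNAs, at means of 6029 and 5854 RPKM over the 12 libraries, and their ranges overlapped. These levels leave out reads assigned to nuclear copies of the genes, described further on. The copies held 24.9% to 25.7% for MT-ATP6 and 27.9% to 29.3% for MT-CO1, but 4.72% to 4.97% for MT-ND4. The order of these mRNAs can therefore depend on how reads were split. MT-CO1 averaged 4869.6 RPKM, MT-CO2 4478 and MT-CO3 3739 for the core subunits of complex IV. MT-ND4L (3068), MT-CYB (3029) and MT-ATP8 (2772) followed, with overlapping ranges. MT-ND4L overlaps MT-ND4 and MT-ATP8 overlaps MT-ATP6, so the gaps within these pairs carry the uncertainty of the shared bases. Lower were the other heavy-strand mRNAs of complex I, to which MT-ND4 and MT-ND4L also belong: MT-ND2 at 2369.7, MT-ND1 at 1965, MT-ND3 at 1778 and MT-ND5 at 1059.7 RPKM. MT-ND6, from the other strand, averaged 13.4 RPKM from 70 to 746 reads per library. The small-subunit rRNA MT-RNR1 averaged 235 and the large-subunit rRNA MT-RNR2 674 RPKM, below the heavy-strand mRNAs in each library. Per the labels' protocols the libraries were both ribo-depleted and made with an mRNA kit, so the levels of the rRNAs, and of MT-ND6 without its poly(A) tail, are what was left after a selection that the labels do not settle.

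The rRNAs were higher in Anillin cells at both DNA contents, among the reads left after the selection of RNA described above. What part differences in that selection between libraries have in this was not tested. MT-RNR2, the scaffold of the large mitochondrial ribosomal subunit, had 784, 679.6 and 606 RPKM in Anillin 4N cells, against 463, 549.8 and 492 RPKM in control 4N cells. It had 1091, 1029 and 763 RPKM in Anillin 2N cells, against 549.7, 603 and 474 RPKM in control 2N cells. Each Anillin library was above every control library of its DNA content, and Anillin 2N replicates 1 and 2 were the highest of the 12. MT-RNR1, the RNA of the small subunit, had 279, 247 and 228 RPKM in Anillin 4N and 182, 198 and 176 RPKM in control 4N cells. It had 355, 327 and 268 RPKM in Anillin 2N and 191, 197 and 177 RPKM in control 2N cells. Here too the groups did not overlap at either DNA content, as was the case for 60.4% of all genes in 4N and 41.4% in 2N cells.

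Both rRNAs passed the test in both comparisons of siRNAs. In 4N cells, where 20.0% of all genes tested rose, the log2 change was 0.44 ± 0.11 for MT-RNR1 (adjusted p = 0.00650) and 0.45 ± 0.15 for MT-RNR2 (adjusted p = 0.0262). In 2N cells, where 11.4% rose, it was 0.74 ± 0.11 for MT-RNR1 (adjusted p = 0.000907) and 0.81 ± 0.15 for MT-RNR2 (adjusted p = 0.00299). The call of MT-RNR2 in 4N cells was lost without Anillin 4N replicate 1 or 2 (adjusted p = 0.0943 and 0.0561) or control 4N replicate 1 or 3 (0.0875 and 0.0675). The rise at 2N minus that at 4N was not past the threshold: the interaction, coded as the siRNA effect in 4N minus that in 2N cells, was -0.30 ± 0.15 (adjusted p = 0.215) and -0.36 ± 0.21 (adjusted p = 0.286).

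**Figure D2:**
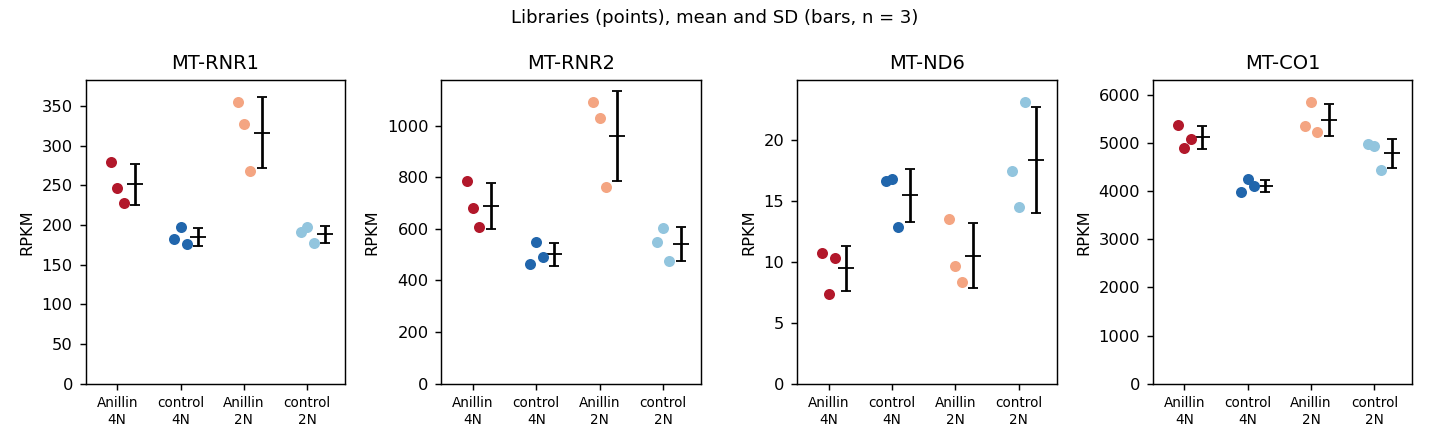
RPKM of MT-RNR1, MT-RNR2, MT-ND6 and MT-CO1 in each library (points) with the mean and SD of 3 libraries beside them, by group. In each panel the 3 Anillin libraries of a DNA content do not overlap the 3 control libraries of the same DNA content: they are higher for both rRNAs and MT-CO1, and lower for MT-ND6.

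Relative to the mRNAs, the rRNAs were higher in Anillin cells as well. This ratio is free of the scaling but not of the selection of RNA. The mean RPKM of the rRNAs divided by that of the 13 mRNAs came to 0.160, 0.158 and 0.130 in Anillin 4N and 0.114, 0.117 and 0.115 in control 4N libraries. The ratio came to 0.217, 0.192 and 0.162 in Anillin 2N and 0.116, 0.128 and 0.105 in control 2N libraries. The control groups lay close together and both Anillin groups lay above them without overlap, by 0.37 on the log2 scale in 4N and 0.70 in 2N cells. An exact two-sided permutation test of 3 against 3 libraries cannot go below p = 0.10, the value reached in both cases, or 0.229 when adjusted over the 16 tests of ratios. MT-RNR2 over MT-RNR1 stayed between 2.54 and 3.15 in the 12 libraries.

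Of the 13 mRNAs, 2 rose and 1 fell between Anillin 4N and control 4N cells, 3 members in all, where 51.5% of all genes tested were called in either direction. This count depended on the scaling: 9 of the 13 passed with limma-voom, where 46.8% of the genes it tested were called. In 4 of the 13, the libraries of the groups did not overlap, against 60.4% of all genes. The median change of the 13 was 0.06, and that of all genes -0.05.

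The mRNAs that rose in 4N cells were MT-CO1 and MT-CYB. MT-CO1, the catalytic subunit of cytochrome c oxidase, had 5375, 4896 and 5075 RPKM in Anillin 4N and 3986, 4241 and 4096 RPKM in control 4N cells, a change of 0.32 ± 0.06 (adjusted p = 0.00103). MT-CYB, cytochrome b of complex III, had 3350.2, 3178 and 3298 RPKM in Anillin 4N and 2615, 2819 and 2781 RPKM in control 4N cells, a change of 0.26 ± 0.05 (adjusted p = 0.00224). For both, the lowest Anillin library lay above the highest control library, and both kept their call with each library left out in turn. MT-ND5, a proton-pumping subunit of complex I, had 1285, 999 and 969 RPKM in Anillin 4N and 889, 952 and 946 RPKM in control 4N cells. Its groups did not overlap, but Anillin 4N replicate 1 set most of the difference and it did not pass (0.21 ± 0.10, adjusted p = 0.118).

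The other heavy-strand mRNAs did not pass in 4N cells. Their changes lay between -0.13 for MT-ATP6, which forms part of the proton channel of ATP synthase, and 0.15 for MT-CO2, the subunit that takes electrons from cytochrome c. MT-ATP6 averaged 5474 ± 339.6 RPKM in Anillin 4N and 5995 ± 473 in control 4N cells, and MT-ND2 averaged 2271 ± 116 RPKM in Anillin 4N and 2465 ± 213 in control 4N cells. These 2 and MT-ND3 had negative changes and the other 9 heavy-strand mRNAs positive ones, but the signs of MT-ATP6, MT-ND2, MT-ND3, MT-ATP8 and MT-ND4L each turned under at least 1 other scaling. With limma-voom, which does not use the authors' factors, MT-CO2 was at 0.26 (adjusted p = 0.00227), MT-ND1 at 0.21 and MT-ND4 at 0.16. The median of that test was 0.11, over its wider set of 22404 genes. MT-CO1 was at 0.42, MT-CYB at 0.36 and MT-ND6 at -0.57 in that test, and these 3 passed. Without the filter on low RPKM, no mRNA passed in either comparison of siRNAs (adjusted p = 0.0727 for MT-CO1, 0.0718 for MT-CYB and 0.0601 for MT-ND6 in 4N cells), nor did MT-RNR2 in 4N cells (0.0705).

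**Figure D3:**
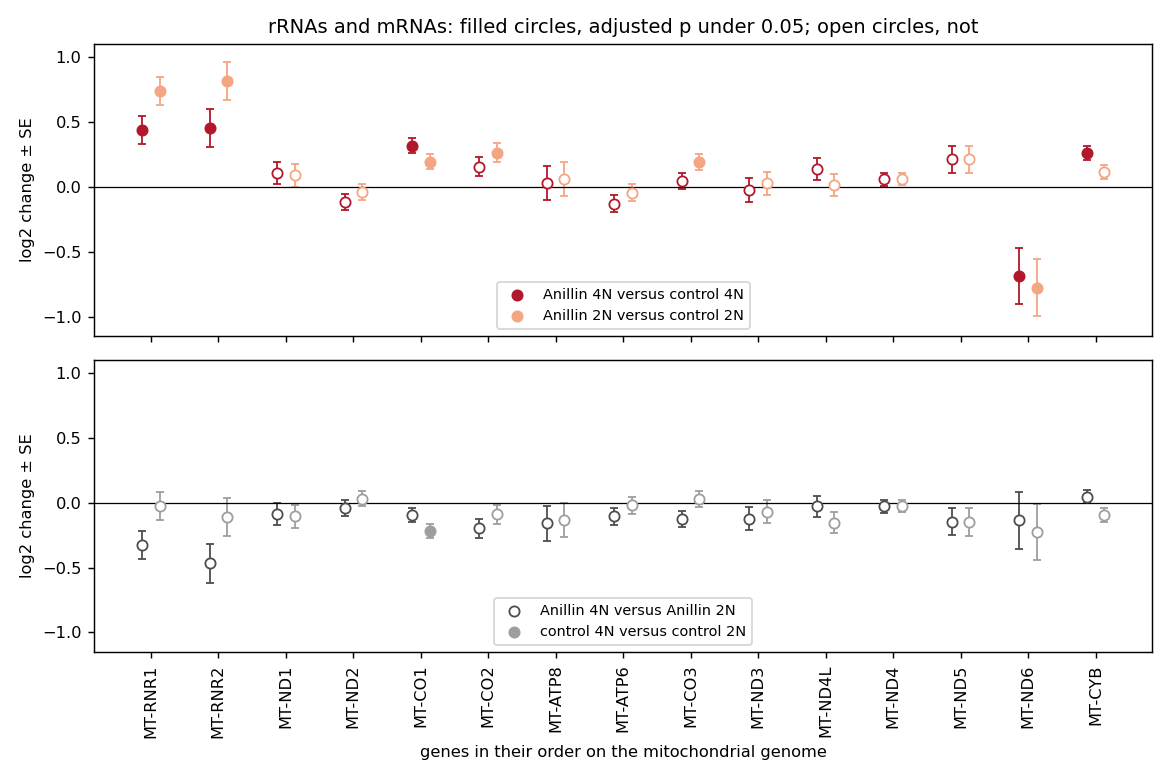
Log2 change ± SE of the 2 rRNAs and 13 mRNAs in genome order, for Anillin against control cells at 4N and 2N (upper panel) and for 4N against 2N cells of each siRNA (lower panel); filled circles have an adjusted p under 0.05. In the upper panel both rRNAs are above 0 and MT-ND6 is below 0 at both DNA contents; in the lower panel only MT-CO1 in control cells is filled, at -0.22.

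The light-strand mRNA went the other way. MT-ND6, a membrane subunit of complex I, had 10.7, 7.37 and 10.3 RPKM in Anillin 4N cells, against 16.6, 16.8 and 12.9 RPKM in control 4N cells. It had 13.5, 9.65 and 8.37 RPKM in Anillin 2N cells, against 17.4, 14.5 and 23.1 RPKM in control 2N cells. Every Anillin library was below every control library of its DNA content, although its SD relative to its mean was larger than that of any heavy-strand mRNA in each group. MT-ND6 fell by 0.69 ± 0.22 in 4N cells (adjusted p = 0.0237; 31.5% of all genes fell) and by 0.78 ± 0.22 in 2N cells (adjusted p = 0.0242; 17.1% fell). The call in 4N cells was lost without Anillin 4N replicate 2 (0.0876) or control 4N replicate 1 or 2 (0.0748 and 0.0706), and with quantile scaling (adjusted p = 0.0656). The call in 2N cells was lost without Anillin 2N replicate 2 or 3 (0.0748 and 0.0826) or control 2N replicate 1 or 3 (adjusted p = 0.0578 and 0.0880), and in a fit of those 2 groups alone (0.0649).

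Set against the heavy-strand mRNAs of the same library, MT-ND6 was again lower in Anillin cells. The selection of RNA bears on this comparison too, as MT-ND6 lacks their poly(A) tail, and its part was not tested. Its RPKM divided by the mean of the 12 heavy-strand mRNAs came to 0.00297, 0.00232 and 0.00297 in Anillin 4N and 0.00540, 0.00486 and 0.00410 in control 4N libraries. The quotient came to 0.00375, 0.00252 and 0.00242 in Anillin 2N and 0.00504, 0.00428 and 0.00691 in control 2N libraries. The groups did not overlap at either DNA content, and the log2 ratio differed by -0.80 and -0.90 (exact permutation p = 0.10 each, the smallest possible; 0.229 adjusted over the 16 tests). The siRNA effect on MT-ND6 differed between 4N and 2N cells by 0.09 ± 0.31 (adjusted p = 0.872). Reads of MT-ND6 and of the heavy-strand transcript that runs opposite to it can be told apart only if the counting used strand, which is not given in the sources used here; what part the opposite transcript has in these values was not tested.

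In 2N cells 3 mRNAs rose and 1 fell with Anillin siRNA, 4 of 13 where 28.6% of all genes were called, and for 4 of 13 the libraries did not overlap, against 41.4% of all genes. All 3 that rose encode the core of complex IV. MT-CO1 had 5349, 5845 and 5221 RPKM in Anillin 2N and 4969.6, 4943 and 4439 RPKM in control 2N cells (0.19 ± 0.06, adjusted p = 0.0279). MT-CO2 had 5067, 5436 and 4885 RPKM in Anillin 2N and 4179, 4206 and 4434 RPKM in control 2N cells (0.26 ± 0.07, adjusted p = 0.0238). MT-CO3, which has no metal centre of its own, had 4435, 4151 and 3624 RPKM in Anillin 2N and 3675, 3492 and 3479.7 RPKM in control 2N cells (0.19 ± 0.06, adjusted p = 0.0431). The groups did not overlap for MT-CO1 and MT-CO2, but did for MT-CO3.

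These changes in 2N cells were small and near the threshold. MT-CO1 lost its call without Anillin 2N replicate 2 (adjusted p = 0.0992) or control 2N replicate 3 (0.0959), and in a fit of those 2 groups alone (0.0829). MT-CO2 lost it without Anillin 2N replicate 1 or 2 or control 2N replicate 1 or 2 (adjusted p = 0.0522, 0.0871, 0.0751 and 0.0577) and with quantile scaling (0.156), and MT-CO3 lost it in a fit of those 2 groups alone (0.132) and with any of the 6 libraries left out other than Anillin 2N replicate 3. The other 9 mRNAs did not pass in 2N cells. MT-CYB was at 0.12 ± 0.05 (adjusted p = 0.134) and MT-ND5 at 0.21 ± 0.10 (adjusted p = 0.169). MT-ATP6, MT-ATP8, MT-ND1, MT-ND2, MT-ND3, MT-ND4 and MT-ND4L lay between -0.04 and 0.09.

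By complex, the shares of reads in the 3 complex IV mRNAs and in the complex III mRNA were higher in Anillin cells, without overlap, at both DNA contents. The complex IV mRNAs took 1.5, 1.38 and 1.41% in Anillin 4N and 1.1, 1.21 and 1.12% in control 4N libraries, and 1.54, 1.63 and 1.44% in Anillin 2N and 1.34, 1.33 and 1.26% in control 2N libraries. MT-CYB of complex III took 0.377% to 0.396% in Anillin 4N and 0.286% to 0.309% in control 4N libraries, and 0.349% to 0.393% in Anillin 2N and 0.310% to 0.348% in control 2N libraries. In 2N cells this separation was slight, from 0.3488% in Anillin 2N replicate 3 to 0.3479% in control 2N replicate 1. On the RPKM scale MT-CYB overlapped there, at 3023 and 3061 RPKM in these 2 libraries. The 2 complex V mRNAs took 0.407% to 0.474% in Anillin 4N and 0.418% to 0.483% in control 4N libraries, which overlapped. The 7 complex I mRNAs took 1.57% to 1.78% in Anillin 4N and 1.42% to 1.59% in control 4N libraries, overlapping as well. These shares carry no scaling by the authors and were not tested one by one. For all 13 mRNAs together the share came to 4.15, 3.73 and 3.85% in Anillin 4N and 3.22, 3.59 and 3.30% in control 4N libraries, and 4.04, 4.34 and 3.84% in Anillin 2N and 3.78, 3.78 and 3.6% in control 2N libraries. Neither pair overlapped (exact permutation p = 0.10 each, or 0.240 adjusted over the 12 tests of shares).

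Position along the heavy strand showed a small difference. The mean RPKM of the mRNAs late on the genome (MT-ND4L, MT-ND4, MT-ND5 and MT-CYB) over that of the early ones (MT-ND1 and MT-ND2) came to 1.55, 1.62 and 1.63 in Anillin 4N and 1.49, 1.39 and 1.44 in control 4N libraries. The same quotient in 2N libraries came to 1.53, 1.56 and 1.57 in Anillin 2N and 1.51, 1.49 and 1.48 in control 2N libraries. The Anillin libraries were above the control libraries of the same DNA content without overlap, by 0.15 and 0.06 on the log2 scale (exact permutation p = 0.10 each).

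The 22 tRNAs were seen through few reads: together 889 to 3148 per library, from genes of 59 to 75 bases. The table does not separate mature tRNAs from longer transcripts that contain them. The 3 highest were the tRNAs for arginine, MT-TR (mean 173 RPKM, 190 to 857 reads), for lysine, MT-TK (153 RPKM), and for histidine, MT-TH (92.5 RPKM). All 3 come from the heavy strand, and none passed the test in any comparison: in 4N cells they were at -0.19 ± 0.13, 0.11 ± 0.11 and 0.26 ± 0.16. MT-TH did pass in 4N cells with limma-voom (0.38, adjusted p = 0.0492).

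Light-strand tRNAs were low throughout. The 8 together had 33, 6 and 24 reads in Anillin 4N and 27, 53 and 55 reads in control 4N libraries, and 55, 26 and 17 reads in Anillin 2N and 84, 32 and 140 reads in control 2N libraries. Relative to the heavy-strand mRNAs the level of Anillin 2N libraries was below that of control 2N libraries without overlap (log2 difference -1.13), and overlapped in 4N libraries (-0.81), a description with no test. Of the 22 tRNAs, 8 had 0 reads in at least 1 library, where counting error alone allows up to 3 reads, and 14 reached 10 reads in at least 3 libraries.

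Of the 22 tRNAs, 1 fell and none rose in Anillin 4N against control 4N cells, and none passed in 2N cells, where 31.5% of all genes fell and 20.0% rose in the 4N comparison and 28.6% were called in the 2N comparison. MT-TQ had 2.27, 0 and 0 RPKM in Anillin 4N and 1.74, 3.43 and 4.78 RPKM in control 4N cells. These came from 3, 0 and 0 reads in Anillin 4N and 3, 11 and 15 reads in control 4N libraries. It fell by 2.02 ± 0.65 (adjusted p = 0.0253), but the groups overlapped, and the fitted size depends on the pseudocount (-3.46 with 0.1 and -1.47 with 1). The call was lost in a fit of these 2 groups alone (0.0746), without the filter on low RPKM (0.0646), and without Anillin 4N replicate 2 or 3 (adjusted p = 0.0905 and 0.0890) or control 4N replicate 2 or 3 (0.0625 and 0.0859). Relative to the mRNAs, the tRNAs as a class overlapped between the groups in all 4 comparisons (exact permutation p between 0.300 and 1.0).

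Another tRNA stood apart in a single library and is described for that reason, chosen after its values were seen. The tRNA for glycine, MT-TG (chrM:9991-10058, plus strand), lies between MT-CO3 and MT-ND3.
MT-TG: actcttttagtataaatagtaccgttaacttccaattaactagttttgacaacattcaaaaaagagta
It had 9.63, 203 and 5.99 RPKM in Anillin 4N and 22.7, 14.2 and 51.6 RPKM in control 4N cells, and 14.2, 14.8 and 12.4 RPKM in Anillin 2N and 17.6, 15.6 and 44.4 RPKM in control 2N cells. Anillin 4N replicate 2 had 250 reads of it, against 12 and 16 in the other Anillin 4N libraries, and its neighbours MT-CO3 and MT-ND3 were not raised there (3641 and 1506 RPKM). Without MT-TG, the ratio of tRNAs to mRNAs of Anillin 4N libraries was below that of control 4N libraries without overlap (log2 difference -0.13, not tested), whereas with it the difference was -0.04.

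Few mitochondrial genes differed between DNA contents within a siRNA. Between Anillin 4N and Anillin 2N cells no member passed the limma-trend test, where 3.58% of all genes were called (in that comparison 5 of the 37 had an unadjusted p under 0.05). Of the 13 mRNAs, 12 had a negative change, with a median of -0.10 beside 0.02 for all genes, and the libraries of the groups did not overlap for 1 of them, MT-CO2, against 24.4% of all genes (-0.20 ± 0.07, adjusted p = 0.211). MT-RNR1 was at -0.33 ± 0.11 (adjusted p = 0.150) and MT-RNR2 at -0.47 ± 0.15 (adjusted p = 0.136). Both rRNAs passed without Anillin 2N replicate 3, the lowest of its group (adjusted p = 0.0431 and 0.0427), and with limma-voom (0.0466 and 0.0262). The ratio of rRNAs to mRNAs of Anillin 4N libraries was below that of Anillin 2N libraries, without overlap (log2 difference -0.34, exact permutation p = 0.10).

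Between control 4N and control 2N cells, 1 mRNA fell, where 37.1% of all genes were called and 13.2% fell. MT-CO1 had 3986, 4241 and 4096 RPKM in control 4N and 4969.6, 4943 and 4439 RPKM in control 2N cells, without overlap, the sole mRNA of 13 so placed against 49.8% of all genes. Its change was -0.22 ± 0.06 (adjusted p = 0.0132), and the call was lost without control 2N replicate 2 (0.0518) or control 4N replicate 1 (adjusted p = 0.0543), and without the filter on low RPKM (0.262). The median of the 13 mRNAs was -0.10 and that of all genes 0.05. The rRNAs were at -0.02 ± 0.11 and -0.11 ± 0.15, MT-ND6 at -0.23 ± 0.22 (adjusted p = 0.445), and no tRNA passed. Each group served in 2 of the 4 comparisons, so their values are not independent. The siRNA effect did not differ between 4N and 2N cells past the threshold for any of the 37 genes (limma-trend; 1 had an unadjusted p under 0.05), where 15.7% of all genes did.

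Nearly identical copies of mitochondrial genes in the nuclear genome were assigned reads as well, and how the counting split reads between a gene and its copies is not given in the sources used here. The table held 402 genes named as copies of mitochondrial genes, of which 26 passed the filter on RPKM. Identity was measured only for the most abundant of them. The highest were MTATP6P1 (mean 1972 RPKM), MTCO1P12 (1874), MTCO3P12 (1253) and MTND1P23 (897), all on chromosome 1. They were 98.5%, 98.6%, 98.2% and 99.2% identical to the mitochondrial gene in RNA, over 681, 1543, 547 and 352 aligned bases. MTCO1P12 averaged 1950.2 ± 89.2 RPKM in Anillin 4N and 1613 ± 70.3 RPKM in control 4N cells, and MTATP6P1 averaged 1869 ± 102 RPKM in Anillin 4N and 2007 ± 147 RPKM in control 4N cells, as their mitochondrial counterparts were higher and lower. MTND1P23 averaged 879 ± 92.8 RPKM in Anillin 4N and 881 ± 47.5 RPKM in control 4N cells, while MT-ND1 averaged 1972 ± 210.4 RPKM in Anillin 4N and 1829 ± 144 RPKM in control 4N cells. Of the reads of a gene and its named copies, the copies held 27.9% to 29.3% for MT-CO1, 24.9% to 25.7% for MT-ATP6 and 9.08% to 9.96% for MT-RNR2, but under 0.5% for MT-CYB. For MT-ND6 the copies held 12.8% ± 1.39 in Anillin 4N and 7.46% ± 0.707 in control 4N libraries (SD, n = 3). With these reads added back, each member kept its side of the threshold, and MT-ND6 was at -0.61 in 4N cells (adjusted p = 0.0461).

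More of the nuclear genes that build and serve mitochondria fell than rose with Anillin siRNA in 4N cells. Of 231 genes in 10 lists, 202 were tested, and 89 fell and 11 rose between Anillin 4N and control 4N cells, beside 31.5% and 20.0% of all genes. Their median change was -0.12, and that of all genes -0.05. With quantile scaling the counts were 62 lower and 34 higher, beside 24.7% and 27.2% of all genes. With limma-voom they were 64 lower and 36 higher of 228 tested, beside 3974 lower and 6503 higher of 22404 genes. The proteins of the mitochondrial ribosome were the largest list: 43 of 71 tested fell and 1 rose, with a median of -0.19. MRPL9, a large-subunit protein, averaged 4.92 ± 0.221 RPKM in Anillin 4N and 13.4 ± 1.03 RPKM in control 4N cells (-1.36 ± 0.08, adjusted p = 4.91e-07), and MRPS10, of the small subunit, 1.99 ± 0.0339 RPKM in Anillin 4N and 4.12 ± 0.110 RPKM in control 4N cells (-0.89 ± 0.06). MRPS34 fell too (-0.55 ± 0.12), while MRPL32 rose (0.14 ± 0.03). Both mitochondrial rRNAs rose in the same comparison.

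Genes for copying and transcribing mitochondrial DNA also fell more often than they rose. Of 15 replication and nucleoid genes, 9 fell and 2 rose, beside 31.5% and 20.0% of all genes. TFAM, which packages mitochondrial DNA and starts its transcription, averaged 1.69 ± 0.122 RPKM in Anillin 4N and 3.14 ± 0.103 RPKM in control 4N cells (-0.73 ± 0.05, adjusted p = 2.01e-06). TWNK, the replicative helicase, was at -0.55 ± 0.06 and ATAD3A, a membrane ATPase tied to nucleoids, at -0.48 ± 0.11, and both fell. RRM2B, a ribonucleotide reductase subunit and known p53 target, rose (0.33 ± 0.06, adjusted p = 0.00101), as did the nuclease EXOG (0.16 ± 0.04). Of the 8 transcription genes tested 4 fell, TFAM included, but POLRMT, the polymerase itself, did not pass (-0.14 ± 0.08, adjusted p = 0.185).

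More of the genes that cut, modify and turn over mitochondrial RNA fell than rose. Of 28 tested, 14 fell and 2 rose in 4N cells, beside the same 31.5% and 20.0% of all genes. PDE12, a nuclease that trims poly(A) from mitochondrial RNA, averaged 1.18 ± 0.0965 RPKM in Anillin 4N and 2.85 ± 0.142 RPKM in control 4N cells (-0.99 ± 0.05, adjusted p = 1.83e-07), and TRMU, which thiolates mitochondrial tRNAs, 0.702 ± 0.0744 RPKM in Anillin 4N and 1.97 ± 0.119 RPKM in control 4N cells (-1.04 ± 0.07). MRM2, the methyltransferase of the large rRNA, fell (-0.45 ± 0.06). Of the proteins of RNase P, TRMT10C fell (-0.29 ± 0.05, adjusted p = 0.000456) and HSD17B10 rose (0.27 ± 0.06, adjusted p = 0.00247), and ELAC2, which cuts the other end of the tRNAs, fell (-0.27 ± 0.06). RPUSD4, a pseudouridine synthase that acts on the large rRNA, rose (0.25 ± 0.03). TRMT10C, ELAC2 and POLRMT lie outside the naming rule and were named for their roles after their values had been seen.

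**Figure D4:**
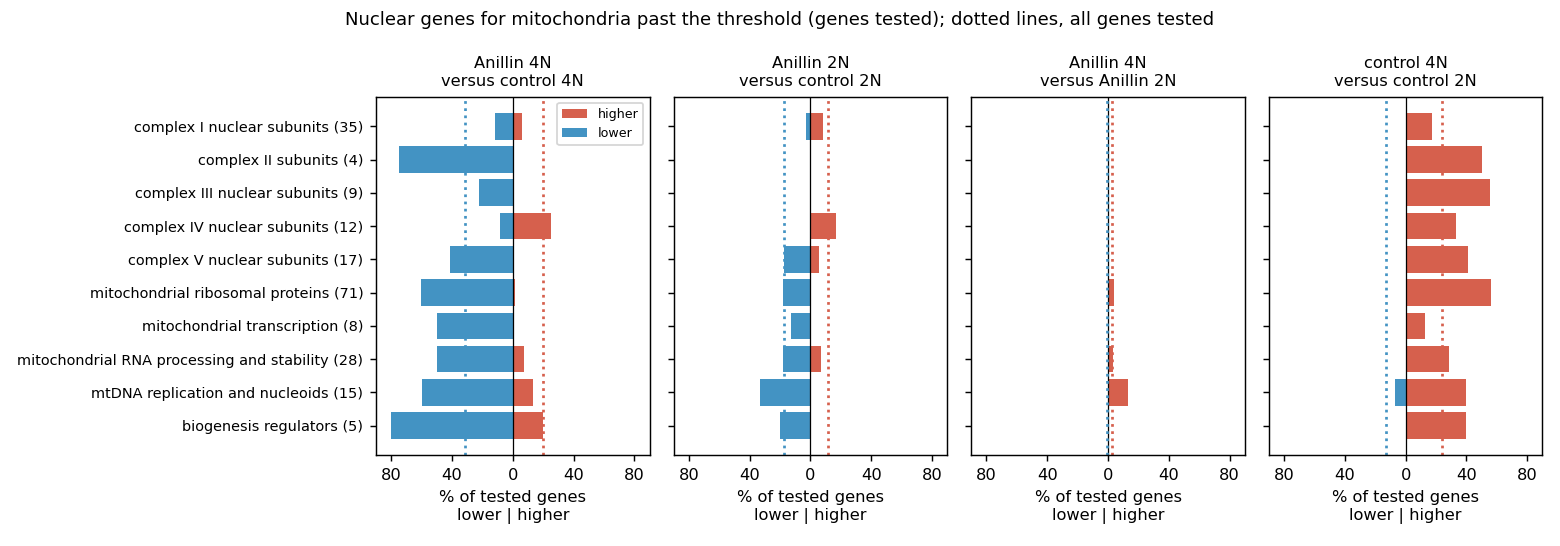
Percent of the tested genes of each nuclear list that were higher (right) or lower (left) at an adjusted p under 0.05, in 4 comparisons; dotted lines give the same over all 12892 genes, and the number tested is in brackets. Mitochondrial ribosomal proteins are mainly lower in Anillin 4N against control 4N cells (43 of 71) and higher in control 4N against control 2N cells (40 of 71).

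Nuclear subunits of the respiratory complexes moved in both directions, and the balance turned with the scaling. Where 31.5% of all genes fell and 20.0% rose in 4N cells, 4 of 35 nuclear complex I subunits fell and 2 rose, 3 of 4 complex II subunits fell, and 2 of 9 complex III subunits fell. Of complex IV, 1 of 12 fell and 3 rose, and of complex V, 7 of 17 fell. With quantile scaling, under which 24.7% of all genes fell and 27.2% rose, 10 complex I subunits rose and 1 fell, and 4 complex V subunits rose and 2 fell. With limma-voom, under which 6503 of 22404 genes rose and 3974 fell, 11 of 37 complex I subunits rose and 2 fell. Complex V had 4 higher and 2 lower of 17, complex II 1 and 0 of 4, and complex IV 4 and 1 of 12. NDUFS1 of complex I (-0.23 ± 0.03), UQCRFS1, the Rieske protein of complex III (-0.33 ± 0.07), and ATP5F1B, the catalytic subunit of ATP synthase (-0.38 ± 0.06), fell, while COX7A2L (0.14 ± 0.03) and NDUFA4 (0.22 ± 0.05), listed with complex IV, rose. Of 5 regulators of mitochondrial biogenesis tested, 4 fell and 1 rose: the transcription factor MYC was at -0.84 ± 0.08 (adjusted p = 1.74e-05), the coactivator PPRC1 at -0.42 ± 0.05 and the nuclear receptor ESRRA at 0.31 ± 0.07.

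In 2N cells the nuclear lists moved less: 28 of 202 fell and 8 rose between Anillin 2N and control 2N cells, beside 17.1% and 11.4% of all genes. With quantile scaling 27 fell and 17 rose, beside 14.7% and 15.1% of all genes. With limma-voom 36 of 228 tested fell and 18 rose, beside 3260 and 3186 of 22404 genes. Mitochondrial ribosomal proteins had 13 of 71 lower and none higher. MRPL9 (-1.07 ± 0.08, adjusted p = 2.12e-05), MRPS10 (-0.59 ± 0.06), PDE12 (-0.80 ± 0.05), TFAM (-0.42 ± 0.05), TWNK (-0.28 ± 0.06) and MYC (-0.59 ± 0.08) fell here too, and HSD17B10 (0.29 ± 0.06) and RPUSD4 (0.18 ± 0.03) rose. The siRNA effect differed between 4N and 2N cells for 16 of the 202, higher for 1 and lower for 15, beside 4.93% and 10.7% of all genes.

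Between control 4N and control 2N cells, 80 of the 202 rose and 1 fell, beside 23.9% and 13.2% of all genes, and with quantile scaling 37 rose and 11 fell, beside 16.3% and 19.1%. Of the ribosomal proteins, 40 of 71 were higher, among them MRPL18 (0.44 ± 0.07) and MRPL51 (0.43 ± 0.07). MGME1, a mitochondrial exonuclease, averaged 1.90 ± 0.0239 RPKM in control 4N and 0.951 ± 0.0779 RPKM in control 2N cells (0.72 ± 0.04, adjusted p = 4.00e-07), and TRMU 1.97 ± 0.119 RPKM in control 4N and 0.826 ± 0.118 RPKM in control 2N cells (0.90 ± 0.07). CYC1, cytochrome c1 of complex III, rose as well (0.49 ± 0.10), while the nuclease EXOG fell (-0.18 ± 0.04). Between Anillin 4N and Anillin 2N cells 6 rose and none fell in the limma-trend fit, beside 2.61% and 0.970% of all genes. With quantile scaling 4 rose and 2 fell, beside 309 and 194 of 12892 genes. Those that rose in the limma-trend fit included MGME1 (0.26 ± 0.04, adjusted p = 0.00339) and MRPL39 (0.30 ± 0.04).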

How the data were processed

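RNA-seq of 12 libraries was deposited by the authors as RPKM per gene. Per the submitters' processing notes, CASAVA 1.8.2, TopHat2, edgeR and hg19 were used; for the annotation, the counting and its use of strand the sources used here give nothing. RPKM times the GENCODE 29 gene span gave whole reads (within 0.01 read) for all 37 mitochondrial genes. Of 38571 genes above 0, 29239 gave whole reads by span and the other 9332 by a common divisor.

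Differences were fitted with limma 3.58.1 (R 4.3.3), limma-trend with Benjamini-Hochberg adjustment, on log2(RPKM + 0.5) in all 12 libraries, for 12892 genes with RPKM of at least 0.5 in at least 3 libraries; fold changes on this scale understate those of low genes. The limma-voom alternative used recovered reads, at least 10 in at least 3 libraries. Shares and ratios had exact two-sided permutation tests. All mRNAs and rRNAs are named, the 3 highest tRNAs, tRNAs past the threshold, the 4 highest nuclear copies, and of each nuclear list up to 3 genes in each direction by size of change among those called without overlap, of which a selection is printed. The members and lists were chosen with earlier results of these data known. No 2 libraries of a group agreed within sampling noise (chi-square per degree of freedom 2.38 to 14.5). Replicates are numbered in accession order. Sequences and coordinates are from the GRCh38 genome with the GENCODE 29 annotation, read with Biopython 1.88. Alternatives changed the scaling, pseudocount, filter, test, groups in the fit and libraries; their effect is in the closing section.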

Additional observations from a re-analysis of the deposited data

How the results depend on the processing

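Single genes' values under each alternative were compared for the 13 mRNAs, the 2 rRNAs and the tRNAs MT-TH, MT-TK, MT-TQ and MT-TR. Of these values, 1539 stayed on their side of the threshold, 44 lost and 32 gained a call, and no called value changed sign. Some values that were not called did. The other tRNAs are not in these counts. The shares of reads and the ratios within the mitochondrial transcriptome moved by less than 1 SD under every alternative run on them. MT-RNR1 at both DNA contents and MT-RNR2 in 2N cells passed under all alternatives. The chosen alternatives were tried as planned, other than adding the reads of nuclear copies to their genes, which was chosen after seeing the data. The edgeR quasi-likelihood test was not run because the deposited values are RPKM, and limma-voom on recovered reads was run in its place. No paired analysis was possible because the labels number the 12 samples without repeats, so the groups share no replicate number.

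Between Anillin 4N and control 4N cells the 3 of 13 mRNAs called became 0 without a filter, 5 with quantile scaling and 9 with limma-voom. They became 7 with the reads outside the mitochondrial genome as denominator. Of all genes, limma-trend called 51.5% and limma-voom 46.8%. With quantile scaling 27.2% rose and 24.7% fell. With the nuclear denominator 3764 of 12892 genes rose and 2975 fell. The 2 rRNAs called became 1 without a filter. The 1 tRNA called of 22 became 0 without a filter, 0 with only these 2 groups in the fit and 4 with limma-voom. Limma-voom tested 14 of the tRNAs in every comparison. Between Anillin 2N and control 2N cells the 4 mRNAs called became 0 without a filter and 1 with only these 2 groups. The tRNAs called became 2 with limma-voom, where 3186 of 22404 genes rose and 3260 fell. Between Anillin 4N and Anillin 2N cells limma-voom called 2 rRNAs and 1 tRNA in place of 0, where 668 of 22404 genes rose and 263 fell. Between control 4N and control 2N cells the 1 mRNA called became 0 without a filter, 2 with the nuclear denominator and 3 with limma-voom. With the nuclear denominator 2284 of 12892 genes rose and 2356 fell, and with limma-voom 3188 of 22404 rose and 5138 fell. In a fit of only these 2 groups 1 tRNA was called. For the interaction of siRNA and DNA content, limma-voom called 1 mRNA in place of 0, where 2292 of 22404 genes were higher and 1227 lower. The fit without a filter tests more low genes, and those with 2 groups have fewer samples; the cause of the other shifts was not tested.

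With each library left out in turn, the calls between Anillin 4N and control 4N cells ranged over 1 to 2 rRNAs and 0 to 3 tRNAs. They ranged over 0 to 3 mRNAs and 0 to 1 tRNAs between Anillin 2N and control 2N cells; over 0 to 1 mRNAs, 0 to 2 rRNAs and 0 to 1 tRNAs between Anillin 4N and Anillin 2N cells; over 0 to 2 mRNAs between control 4N and control 2N cells; and over 0 to 1 mRNAs and 0 to 1 tRNAs for the interaction. Without Anillin 2N replicate 3, MT-CO3 passed between Anillin 4N and Anillin 2N cells (-0.20, adjusted p = 0.0367) and for the interaction (-0.23, 0.0248). The share of all genes called was not computed with a library left out, without a filter or with only 2 groups. Counts under those settings therefore do not show whether the members moved more than other genes.

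Of the 202 nuclear genes, 11 were higher in Anillin 4N against control 4N cells, but 34 with quantile scaling. Limma-voom tested 228 of the listed genes, here and in the rest of this paragraph, and called 36 higher. In Anillin 2N against control 2N cells 8 were higher, but 17 with quantile scaling and 18 with limma-voom. Between Anillin 4N and Anillin 2N cells 2 were lower with quantile scaling in place of 0, beside 194 of 12892 genes. Between control 4N and control 2N cells 80 were higher, but 37 with quantile scaling, and 1 lower, but 11 with quantile scaling and 13 with limma-voom. For the interaction 1 was higher, but 2 with quantile scaling and 7 with limma-voom, and 15 lower, but 8 with limma-voom. Of all genes, 781 of 12892 were higher for the interaction with quantile scaling. With limma-voom 2292 of 22404 were higher and 1227 lower. The light-strand tRNAs and MT-TQ rest on few reads, so changes in them were hard to detect at this depth, and intervals or limits for counts cover counting error only.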
